A study of Mus musculus with 6 samples.

Results

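Beta-defensin genes were examined in the prostates of 6 male C57BL/6 mice. The members were all rows of the deposited gene table whose symbol is Defb followed by a number, which gave 42 of 34745 genes. The symbol rule used no measured value, but the family was chosen with earlier results of these data known. The T + E2 group (n = 3) carried 1 subcutaneous slow-release pellet of testosterone and estradiol, renewed monthly, for 12 weeks, and the CON group (n = 3) had the skin incision and its closure without a pellet. The mice were 6 to 8 weeks old at the start, and none carried a transgene or a deleted gene as far as the labels and methods state. RNA of the prostate was sequenced, and the lobes were not separated as far as the labels state. Expression was measured as reads per gene, as CPM (reads per 1000000 after TMM scaling of the libraries) and as FPKM, which also divides by the length of the gene. Between 14816146 and 16555549 reads were counted on genes in a mouse, and a count of 3, the most that a count of 0 allows, was worth 0.183 to 0.207 CPM. These limits cover counting error only.

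Beta-defensins are small, positively charged peptides that epithelial cells secrete. A set of conserved cysteines holds the mature peptide in a compact fold through disulfide bonds, and many members damage the membranes of bacteria and fungi. In rodents the family has grown by duplication into clusters on several chromosomes, and a large share of the members is made in the epididymis, where androgens maintain their expression and where the peptides coat maturing sperm. A few members also act as signals, through the chemokine receptor Ccr6 or melanocortin receptors.

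The tissue carried the RNA of prostate epithelium in every mouse. All 11 listed prostate secretory and luminal genes were abundant enough to be tested, and probasin (Pbsn), an androgen-dependent prostate secretory protein, stood at 12343 to 16628 CPM in the CON mice, against 1258 to 1752 CPM in T + E2 mice. Pbsn, the transglutaminase Tgm4 and Cd24a were downregulated (log2 fold changes of -3.29, -2.91 and -1.30), and Msmb, a secreted protein of seminal plasma, was upregulated (1.10). Of the libraries, 2 stood apart in genes of the neighbouring seminal vesicle: the 7 listed genes of the Svs family summed to 9931 CPM in CON mouse 2 and 600.4 CPM in T + E2 mouse 2, against at most 3.97 CPM in the other mice. Their profiles differed, since Svs5 and Svs4 made up most of the sum in CON mouse 2 (5037 and 4582 CPM), whereas Svs2 did in T + E2 mouse 2 (483 CPM), where Svs1, Svs3a, Svs3b and Svs6 had 3 to 5 counts, close to the other T + E2 mice. The counts below were therefore also taken without these libraries. In bulk tissue, more cells of a type and more RNA per cell cannot be told apart.

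The 42 members lay in 6 loci, taking members at most 500 kb apart on a chromosome as 1 locus, and reads fell on few of them. In all, 20 members had 0 counts in every mouse, 9 had 1 to 3 counts at most, and 13 had over 3 counts in at least 1 mouse. By this last measure 8 members were detected in the CON group and 12 with T + E2, of which 7 were shared. Defb26, Defb28, Defb29, Defb43 and Defb48 were detected in the T + E2 group alone, and Defb6 in the CON group alone, with 15 counts in CON mouse 1 and 0 in the other 5 mice. Without mouse 2 of each group the numbers were 6 and 12. Of the 42 members, 8 had enough reads to be tested with edgeR, and 6 of these were upregulated in the T + E2 group (adjusted p under 0.05 and log2 fold change over 1), namely Defb2, Defb28, Defb29, Defb42, Defb48 and Defb50, while among all 15580 genes tested 4.27% were upregulated. Defb2, Defb28, Defb29 and Defb48 passed the filter on low counts through the T + E2 mice alone, so the 8 tested are not a sample of the family. None was downregulated (3.38% of all genes tested), with 0 at an unadjusted p under 0.05, and DESeq2 and limma called none either. Without mouse 2 of each group the same 6 members were upregulated.

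**Figure D1:**
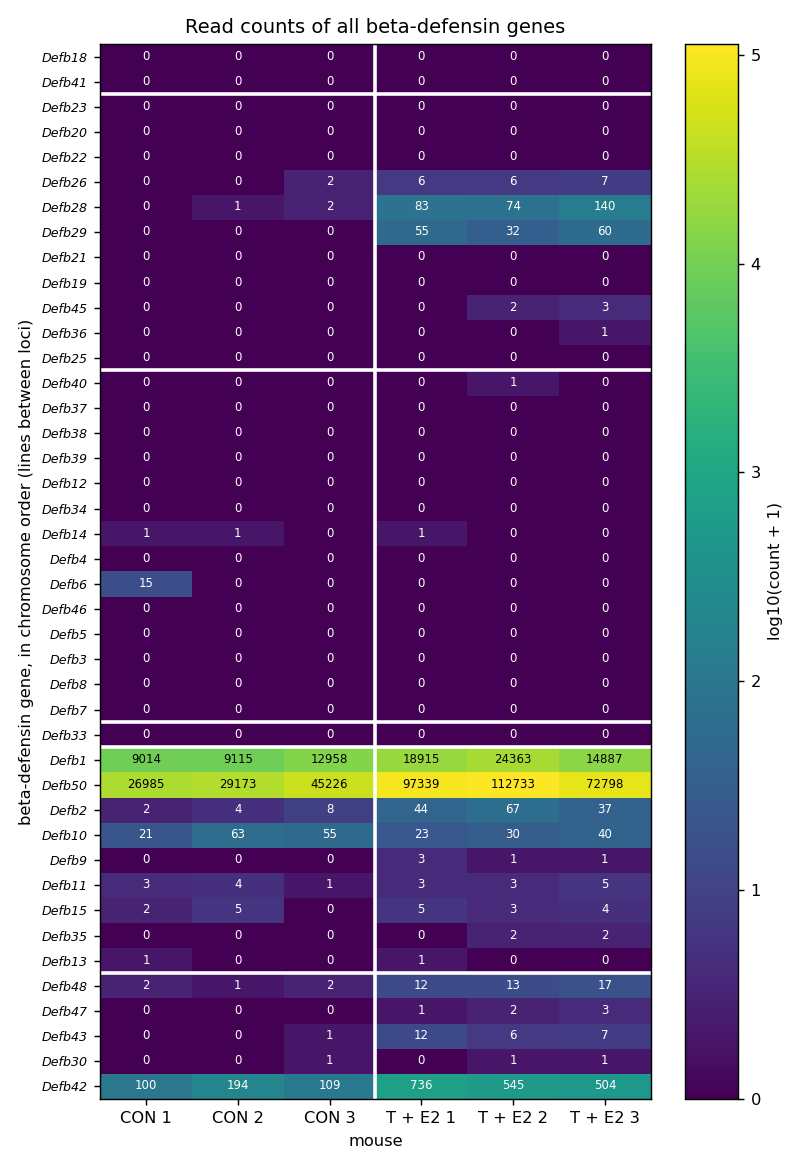
Reads counted on each of the 42 beta-defensin genes (rows, in chromosome order, with white lines between the 6 loci) in each mouse (columns); the colour is log10(count + 1) and the number in each cell is the count. Nearly all reads lie on Defb50 and Defb1, the loci on chromosome 1 and proximal chromosome 8 are almost empty, and counts on chromosomes 2 and 14 stand mainly in the T + E2 columns.

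The distal locus on chromosome 8 (GRCm38, chr8:21776599-21948850) was the site of nearly all beta-defensin RNA. It holds 9 members, Defb1, Defb50, Defb2, Defb10, Defb9, Defb11, Defb15, Defb35 and Defb13, all of which had at least 1 read. Summed over the 9, the level was 2383, 2518 and 3658 CPM in the CON mice, against 8038, 8345 and 5851 CPM in T + E2 mice.

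Defb50 (ENSMUSG00000058568, chr8:21823539-21831296, plus strand) was the most abundant member in every mouse. Its counts were 26985, 29173 and 45226 in the CON mice, against 97339, 112733 and 72798 in T + E2 mice. Every T + E2 mouse lay above every CON mouse, as did 20% of all genes tested. On the CPM scale the group means were 2180 ± 575 and 6145 ± 1121 (SD, n = 3 each), and edgeR gave a log2 fold change of 1.495 ± 0.21 (SE; adjusted p = 0.00235), that is 2.82-fold. Among nuclear protein-coding genes ranked by FPKM, Defb50 was 6th, 7th and 4th in the CON mice and 2nd in each T + E2 mouse. It took 0.182 to 0.282% of all reads counted on genes in the CON group and 0.491 to 0.681% in the T + E2 group.

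Defb1 (ENSMUSG00000044748, chr8:21776599-21795185, plus strand), which kidney and other epithelia make constitutively, came next. Its counts were 9014, 9115 and 12958 in the CON mice, against 18915, 24363 and 14887 in T + E2 mice. The groups did not overlap, but the fold was smaller than for Defb50. The log2 fold change was 0.91 ± 0.18 (SE), and although the adjusted p of edgeR was 0.0112, the fold stayed under the threshold. Of all genes tested, 10.4% had an adjusted p under 0.05 with higher values in the T + E2 group. Without mouse 2 of each group the adjusted p of Defb1 was 0.105, whereas that of Defb50 was 0.0414.

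The ratio of Defb50 to Defb1 was higher in every T + E2 mouse than in any CON mouse. Per length, Defb50 exceeded Defb1 by 6.999, 7.48 and 8.16 times in FPKM in the CON mice and by 12.0, 10.8 and 11.4 times with T + E2. An exact two-sided permutation test over the mice gave p = 0.1, the smallest that 3 against 3 mice allow. As a share of all beta-defensin reads, Defb50 took 74.7 to 77.5% in the CON group and 81.8 to 83.0% in the T + E2 group, and Defb1 took 22.2 to 24.9% and 16.1 to 17.7%. All other members together took under 1%, that is 147 to 273 reads in a CON mouse and 788 to 985 reads in a T + E2 mouse.

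Defb2 (ENSMUSG00000006570, chr8:21839926-21843482, plus strand), a low-level neighbour of Defb50, had 2, 4 and 8 counts in the CON mice, against 44, 67 and 37 in T + E2 mice. All T + E2 mice lay above all CON mice. The log2 fold change was 3.37 ± 0.44 (SE, edgeR, adjusted p = 0.00163), and the ratio of the summed reads was 10.7 with an exact 95% counting interval of 6.15 to 19.965. Relative to its neighbour, Defb2 had 0.741 to 1.77 reads for every 10000 reads of Defb50 in the CON mice, against 4.52 to 5.94 with T + E2 (exact two-sided permutation p = 0.1, the smallest possible). Defb10 (ENSMUSG00000044743, chr8:21858901-21862011, plus strand), the next gene, had 21, 63 and 55 counts in the CON mice, against 23, 30 and 40 in T + E2 mice. Its groups overlapped, with the lowest CON mouse under every T + E2 mouse, and the log2 fold change of -0.56 ± 0.41 (SE) did not pass the test (edgeR, adjusted p = 0.37). Defb11 had 3, 4 and 1 counts in the CON mice, against 3, 3 and 5 in T + E2 mice, and Defb15 had 2, 5 and 0 and 5, 3 and 4 counts. The ratios of their summed reads were 1.39 (0.508 to 3.97) and 1.73 (0.627 to 5.18), so a difference was not detectable at this depth. Defb9, Defb35 and Defb13 had at most 3, 2 and 1 counts.

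**Figure D2:**
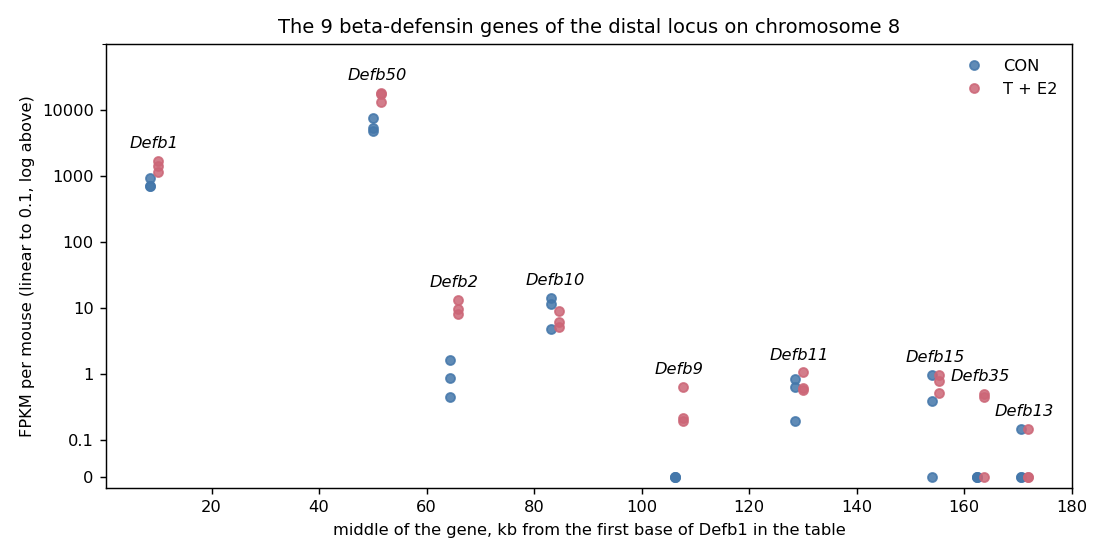
FPKM of the 9 beta-defensin genes of the distal chromosome 8 locus in each mouse (y axis, linear to 0.1 and logarithmic above) against the distance of the middle of the gene from the first base of Defb1 in kb (x axis), with CON mice in blue and T + E2 mice in red. Defb1 and Defb50 stand above 600 FPKM in every mouse, Defb2 separates the groups near 1 and 10 FPKM, and Defb10 and the genes beyond it overlap or lie near 0.

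The coding sequences of these neighbours are shown because Defb50, the most abundant, departs from the cysteine pattern of the others. They are taken from the GENCODE M21 transcripts (GRCm38) and read 5′ to 3′ from the start to the stop codon, and capitals mark in-frame codons for cysteine.
Defb50: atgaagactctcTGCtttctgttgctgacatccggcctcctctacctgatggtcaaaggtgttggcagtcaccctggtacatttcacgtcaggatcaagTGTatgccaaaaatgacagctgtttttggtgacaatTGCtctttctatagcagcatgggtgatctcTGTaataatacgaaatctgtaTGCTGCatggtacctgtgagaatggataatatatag
Defb1: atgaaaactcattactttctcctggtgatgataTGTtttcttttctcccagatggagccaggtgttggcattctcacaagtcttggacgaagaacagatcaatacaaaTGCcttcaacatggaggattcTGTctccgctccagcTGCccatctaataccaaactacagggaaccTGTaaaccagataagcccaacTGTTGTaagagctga
Defb2: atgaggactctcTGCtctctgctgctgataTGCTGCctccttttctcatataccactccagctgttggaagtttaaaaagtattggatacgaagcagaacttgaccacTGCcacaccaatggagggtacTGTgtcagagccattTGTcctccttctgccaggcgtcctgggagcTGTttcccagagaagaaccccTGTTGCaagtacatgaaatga
Defb10: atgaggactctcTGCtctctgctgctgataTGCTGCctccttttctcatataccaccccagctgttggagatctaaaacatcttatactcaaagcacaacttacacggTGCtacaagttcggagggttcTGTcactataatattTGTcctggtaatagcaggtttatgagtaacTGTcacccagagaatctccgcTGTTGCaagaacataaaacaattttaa
In Defb1, Defb2 and Defb10 the last 6 cysteine codons are separated by 6, 4, 9, 6 and 0 other codons. In Defb50 only 5 follow the one at codon 5 near the start, separated by 11, 9, 6 and 0 codons, and 11 codons is the length of the first 2 gaps of Defb1 plus 1 codon. The second cysteine codon of the pattern is thus missing from Defb50 in this reference. Over the family, 37 of the 42 coding sequences hold 6 cysteine codons with 5 to 7, 3 to 4, 8 to 10, 4 to 7 and 0 codons between neighbours, limits that were set after these sequences were seen. Of the other 5, Defb50, Defb8 and Defb33 each lack 1 of the 6 (the second, the first and the third), and Defb22 and Defb46 depart further. Coding sequences run from 57 to 186 codons and 40 of 42 are split over 2 coding exons.

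Sequence identity bears on how surely a read can be assigned to a member. The coding sequence of Defb50 was 56.9% identical to its closest member, Defb11, over the global alignment, and that of Defb1 62.1% to Defb2. The median over all 861 pairs was 48.3%. No transcript of another gene matched Defb50, Defb1, Defb28, Defb29 or Defb48 at 80% identity over 50 bases. The transcript of Defb2 matched Defb11 at 80.7% over 305 bases, that of Defb10 matched Defb11 at 90.3% over 299 bases, that of Defb15 matched Defb34 at 91.1% over 247 bases and that of Defb35 matched Defb12 at 97.5% over 202 bases, so the low counts of Defb2, Defb10, Defb11, Defb15 and Defb35 are uncertain. Defb15 also lies wholly within Gm36879 on the opposite strand, over 2912 bases.

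The locus on chromosome 14 (chr14:62977524-63058149) holds Defb48, Defb47, Defb43, Defb30 and Defb42. Summed, its members stood at 6.75, 12.8 and 7.10 CPM in the CON mice, against 52.6, 34.5 and 35.5 CPM with T + E2, nearly all of it from Defb42.

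Defb42 (ENSMUSG00000054763, chr14:63046991-63058149, plus strand) had 100, 194 and 109 counts in the CON mice, against 736, 545 and 504 in T + E2 mice. The lowest T + E2 mouse had over 2 times the reads of the highest CON mouse. The log2 fold change was 2.17 ± 0.28 (SE, edgeR, adjusted p = 0.00174), that is 4.49-fold. The gene overlaps Defb30 on the opposite strand over 2970 bases, whether counting used the strand is not given in the sources used here, and Defb30 itself had at most 1 count in any mouse. A long transcript of Defb42 also contains a stretch that matches transcripts of at least 167 other genes at 80% identity or more, so reads from that stretch cannot be assigned with certainty.

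Defb48 (ENSMUSG00000075574, chr14:62977524-62984510, minus strand) had 2, 1 and 2 counts in the CON mice, against 12, 13 and 17 in T + E2 mice. The groups did not overlap, at low depth. The fitted log2 fold change of 2.99 ± 0.46 (SE, edgeR, adjusted p = 0.0033) depends on the prior count at this depth, and the ratio of the summed reads was 8.47 with a counting interval of 3.35 to 27.4. Defb43, which was too low to be tested, had 0, 0 and 1 counts and 12, 6 and 7 counts. The ratio of its summed reads was 25.2, and its interval of 4.12 to 1034 is wide because the CON group holds a single read. With no filter on low counts, edgeR also called Defb43 upregulated, as did DESeq2 and limma. Defb47 had 0 counts in the CON mice, against 1, 2 and 3 in T + E2 mice, which is within what a count of 0 allows.

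The locus on chromosome 2 (chr2:152459055-152623053) holds 11 members and was almost silent in the CON mice, with 0, 1 and 4 reads over all 11 members, against 144, 114 and 211 reads in T + E2 mice. These reads came from the adjacent genes Defb26, Defb28 and Defb29, with a few on Defb45 and Defb36 in the T + E2 mice.

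Defb28 (ENSMUSG00000074679, chr2:152518255-152521447, plus strand) had 0, 1 and 2 counts in the CON mice, against 83, 74 and 140 in T + E2 mice. Among members with reads in both groups it had the largest ratio between them. It was upregulated (edgeR, adjusted p = 0.00027), and the ratio of the summed reads was 99.8 with a counting interval of 33.8 to 487. Defb29 (ENSMUSG00000044249, chr2:152538714-152540098, minus strand) had 0 counts in each CON mouse and 55, 32 and 60 in the T + E2 mice. It was upregulated (edgeR, adjusted p = 0.00138), and against a limit of 3 counts in each CON library it was at least 16.7-fold higher. Defb26, which was not tested, had 0, 0 and 2 counts and 6, 6 and 7 counts. The ratio of its summed reads was 9.57 with a counting interval of 2.31 to 84.8. Defb45 had 0, 2 and 3 counts in the T + E2 mice and Defb36 had 0, 0 and 1, with 0 in every CON mouse. The other 6 genes of the locus, Defb23, Defb20, Defb22, Defb21, Defb19 and Defb25, had 0 counts in every mouse. Defb22 encodes a glycoprotein of the sperm coat.

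**Figure D3:**
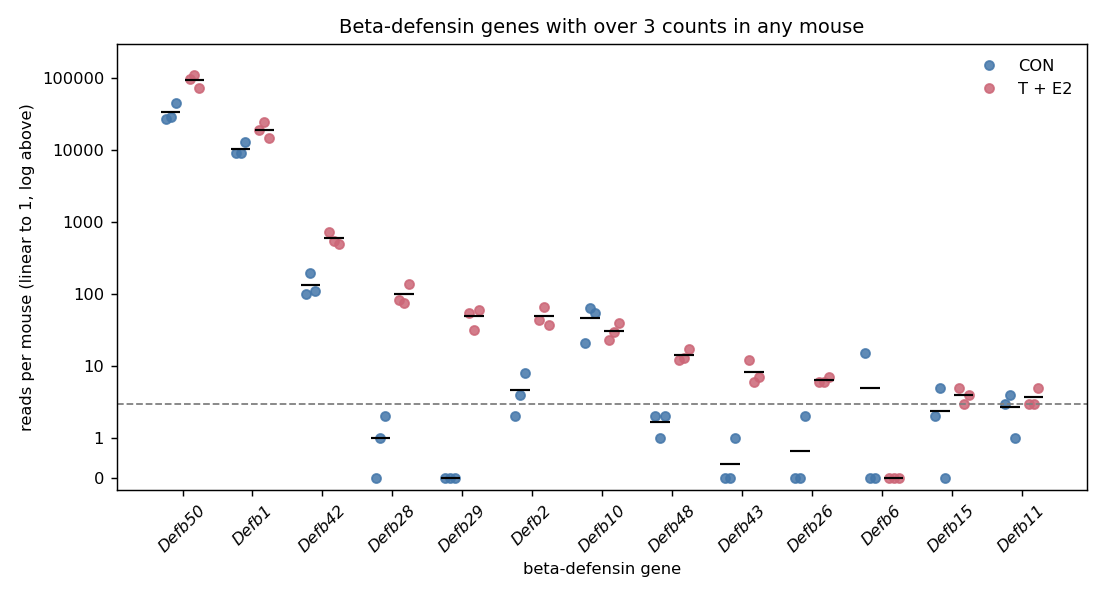
Reads in each mouse for the 13 beta-defensin genes with over 3 counts in at least 1 mouse, ordered by their mean CPM in the higher group (y axis linear to 1 and logarithmic above; blue points are CON mice, red points T + E2 mice, short lines the group means, and the dashed line 3 counts). Defb28, Defb29, Defb48, Defb43 and Defb26 lie at or under 2 counts in every CON mouse and above 3 in every T + E2 mouse, while Defb10, Defb15 and Defb11 overlap.

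The coding sequences of the upregulated members of low level are shown for comparison with those above, with capitals again marking in-frame cysteine codons (GENCODE M21, GRCm38).
Defb28: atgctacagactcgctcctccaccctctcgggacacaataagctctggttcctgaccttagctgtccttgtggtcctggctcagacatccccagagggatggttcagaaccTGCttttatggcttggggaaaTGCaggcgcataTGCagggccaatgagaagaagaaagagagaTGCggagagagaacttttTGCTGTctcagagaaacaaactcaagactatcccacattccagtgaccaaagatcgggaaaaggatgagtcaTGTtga
Defb29: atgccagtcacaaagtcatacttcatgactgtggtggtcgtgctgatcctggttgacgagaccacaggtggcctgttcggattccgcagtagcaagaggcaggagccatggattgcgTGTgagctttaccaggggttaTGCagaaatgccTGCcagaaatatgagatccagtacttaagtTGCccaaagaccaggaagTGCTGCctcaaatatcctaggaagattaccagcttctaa
Defb42: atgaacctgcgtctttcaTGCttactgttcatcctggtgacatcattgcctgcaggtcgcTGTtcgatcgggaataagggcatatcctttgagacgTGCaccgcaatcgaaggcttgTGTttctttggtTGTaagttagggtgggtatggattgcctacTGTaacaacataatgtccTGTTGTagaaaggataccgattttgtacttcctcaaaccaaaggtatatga
Defb48: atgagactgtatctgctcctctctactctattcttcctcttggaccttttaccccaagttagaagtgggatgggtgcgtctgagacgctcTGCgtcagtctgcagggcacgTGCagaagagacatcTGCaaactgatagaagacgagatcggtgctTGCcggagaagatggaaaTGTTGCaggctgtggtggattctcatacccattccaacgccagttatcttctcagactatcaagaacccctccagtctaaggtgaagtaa
All 4 hold the 6 cysteine codons. Defb28, Defb29 and Defb42 share the spacing of 6, 3, 9, 5 and 0 codons, and Defb48 has 6, 4, 9, 5 and 0, against 6, 4, 9, 6 and 0 in Defb1 and Defb2. Defb28 carries 1 more cysteine codon 22 codons after the last pair.

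The other loci gave almost no reads. On proximal chromosome 8 (chr8:18974940-19497775), 11 of 14 members had 0 counts in every mouse. Among these were Defb4, which inflamed epithelia induce, and its neighbours Defb3, Defb5, Defb7, Defb8, Defb12, Defb34, Defb37, Defb38, Defb39 and Defb46. Defb14, the mouse counterpart of an inducible human skin defensin, had at most 1 count in any mouse, as did Defb40. Defb6 was the member with 15 counts in CON mouse 1. Defb33, further along chromosome 8, and Defb18 and Defb41 on chromosome 1 had 0 counts in every mouse.

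**Figure D4:**
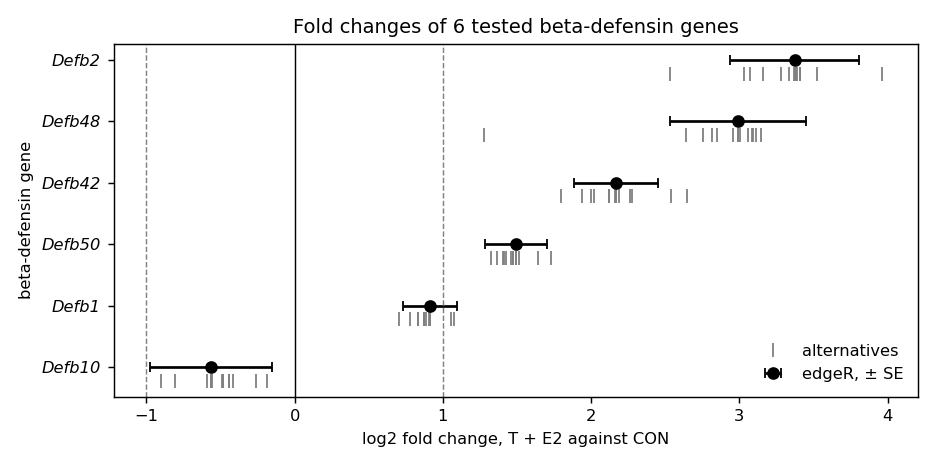
Log2 fold changes, T + E2 against CON, of the 6 tested beta-defensin genes with reads in every mouse (black points with standard errors from edgeR) and the values under each alternative way of processing (grey ticks); dashed lines mark -1 and 1. Defb2, Defb48, Defb42 and Defb50 stay above 1 under each alternative, Defb1 lies on both sides of 1, and Defb10 stays below 0.

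Over all 42 members, the summed level was 2863 ± 699 CPM in the CON group, against 7463 ± 1360 CPM in the T + E2 mice (SD, n = 3 each), a ratio of 2.61. The mice ranged from 2391 to 3665 CPM and from 5900.5 to 8386 CPM, so the groups did not overlap. Without Defb50 the ratio was 1.93.

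Promoter windows of 250 bases before the start were at hand in RefSeq for 29 of the 42 members (30 windows, GRCm38.p6), among them Defb10, Defb28, Defb29, Defb42 and Defb48. Defb50, Defb1 and Defb2 were among the 13 without one, so the shares below leave out the most abundant members. The start is that of RefSeq. For some members, among them Defb29, Defb30 and Defb45, it lies inside the deposited coordinates of the gene, so other starts were not searched. The letters AGAACA, a half-site of steroid hormone response elements, occurred on either strand in 14 of the 30 windows (46.7%), against 16.1% of all 32851 windows. The letters AGGTCA, a half-site of the estrogen receptor, occurred on either strand in 7 (23.3%, against 14.02%), and TATAAA on the sense strand in 3 (10%, against 7.59%). Neighbouring members are related by descent, so their windows are not independent. Among the members with AGAACA, Defb48 was upregulated, Defb10 was not, and 12 were not tested, while the windows of Defb28, Defb29 and Defb42 did not hold it. The windows of Defb48, Defb42 and Defb10 are shown with the matches in capitals. That of Defb48 (chr14:62984511-62984760, minus strand) has AGAACA 56 bases and TATAAA 30 bases before the start. That of Defb42 (chr14:63046741-63046990, plus strand) has TGACCT, the reverse complement of AGGTCA, 119 bases before the start. That of Defb10 (chr8:21858651-21858900, plus strand) has AGAACA 234 bases before the start. A match is a description of letters and not of binding.
Defb48 promoter: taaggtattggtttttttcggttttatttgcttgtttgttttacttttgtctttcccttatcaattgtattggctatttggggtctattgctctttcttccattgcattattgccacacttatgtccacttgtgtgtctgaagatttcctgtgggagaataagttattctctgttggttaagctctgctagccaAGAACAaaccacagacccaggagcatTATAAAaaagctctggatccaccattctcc
Defb42 promoter: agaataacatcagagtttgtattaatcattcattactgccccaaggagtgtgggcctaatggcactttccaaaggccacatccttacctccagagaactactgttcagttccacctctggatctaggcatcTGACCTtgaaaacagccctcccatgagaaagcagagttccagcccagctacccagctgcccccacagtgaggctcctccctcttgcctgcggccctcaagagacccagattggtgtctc
Defb10 promoter: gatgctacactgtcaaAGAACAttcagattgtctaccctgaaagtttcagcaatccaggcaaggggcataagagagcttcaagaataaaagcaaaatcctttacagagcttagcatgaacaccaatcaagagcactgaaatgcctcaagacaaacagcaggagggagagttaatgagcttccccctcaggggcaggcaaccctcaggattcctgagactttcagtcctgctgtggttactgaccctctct

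Genes with related roles were read from lists. The 13 alpha-defensin genes listed by their Defa symbols, a family of intestinal Paneth cells, were not detectable at this depth. Of these, 12 had 0 counts in every mouse and the other had 1 count in all. Genes of this family under other symbols were not in the list. Of 34 other antimicrobial proteins, 18 were tested, 5 were upregulated (3 to 8 over the alternatives) and 1 was downregulated (1 to 2). Among all genes tested, 4.27% were upregulated and 3.38% downregulated. The upregulated genes of the list included Ccl28, a mucosal chemokine with antimicrobial activity (log2 fold change 6.57 ± 0.47, SE here and below), Sprr2a3 (2.34 ± 0.31) and Chga, a granule protein of neuroendocrine cells (1.41 ± 0.23), while Ang, a ribonuclease, was downregulated (-1.37 ± 0.12). For 1 of the 5 upregulated genes the call was lost in 13 of 15 alternatives. Of 11 other sperm-binding or epididymal genes with small disulfide-rich products, 4 passed the filter on low counts, all through the T + E2 mice, and were upregulated. Wfdc6b had 0 to 3 counts in a CON mouse and 1212 to 2155 with T + E2, and Wfdc8 had 5 to 6 and 1374 to 1628. Eppin, a sperm-binding protease inhibitor, had 0 to 5 and 189 to 318, and Wfdc6a had 1 and 49 to 85. The summed level of these 11 genes ranged from 0.662 to 0.816 CPM without the pellet and from 191 to 257 CPM with it. Spag11a and Spag11b, which sit among the beta-defensins of chromosome 8, had 0 counts and 1 count in all. The median log2 fold change over all tested genes was -0.002.

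Of 10 receptors and sensing genes for beta-defensins, 7 were tested and Tlr4 alone was called upregulated (1.92 ± 0.57, edgeR, adjusted p = 0.049), a call that was lost in 8 of 15 alternatives. Of 19 known inducers and their receptors, 13 were tested and 2 were upregulated, the vitamin D receptor Vdr (1.98 ± 0.18) and the flagellin receptor Tlr5 (1.62 ± 0.15). The cytokines Il17a, Il17f and Il22, which induce beta-defensins in mucosal epithelia, had 0 counts in every mouse. Among 6 hormone receptors, all tested, Esr2 was downregulated (-1.20 ± 0.18). Esr1, an estrogen receptor, had a log2 fold change of 0.82 ± 0.13 (edgeR, adjusted p = 0.0039), under the fold threshold.

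Because a large share of the family is made in the epididymis, markers of that organ were read beside the members of chromosomes 2 and 14. Of 24 listed epididymis genes, 13 had 0 counts in every mouse, among them Lcn5, Lcn8, Crisp4, Gpx5, Rnase9 and Cst8, and 17 had at most 3 counts. Only 3 were tested, and Adam7 and Eppin were upregulated, Adam7 from 0 counts in each CON mouse to 158, 81 and 139 (at least 43.0-fold). The list summed to 26.1, 407 and 25.2 CPM in the CON mice, against 52.4, 102 and 50.3 CPM in T + E2 mice. The value of CON mouse 2 came through Pate4, in the library with the highest sum of Svs genes, and its source was not tested. Of the 5 listed urothelial genes, 3 were tested, and Upk1a and Upk2 were upregulated (1.80 ± 0.21 and 2.20 ± 0.33). The urothelial list summed to 422 to 642 CPM in the CON mice, against 1372 to 1699 CPM in T + E2 mice. The part of these cells in the change of any beta-defensin was not tested. None of the tested genes of neutrophils (3 of 9 listed) or skeletal muscle (5 of 5) was called in either direction by edgeR, DESeq2 or limma, with 0 at an unadjusted p under 0.05 in edgeR. Of the fat genes (3 of 4 tested) edgeR called none, with 2 at an unadjusted p under 0.05, DESeq2 called 1 and limma 0.

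Genes around the loci mostly differed by less than the threshold. Within 500 kb of a member, 48 other genes were tested, of which 3 were upregulated (3 to 8 over the alternatives) and 2 downregulated (0 to 4), with a median log2 fold change of -0.03. The shares over all genes tested were 4.27% upregulated and 3.38% downregulated. Around the chromosome 14 locus edgeR called 4 of 8, with 6 at an unadjusted p under 0.05. Around the chromosome 2 locus it called 1 of 24, with 8 at such a p. Around the distal chromosome 8 locus none of 9 was called by edgeR, DESeq2 or limma, with 1 at an unadjusted p under 0.05 in edgeR. Its nearest tested neighbours were AY761184, 73.0 kb from Defb1 (0.55 ± 0.15, adjusted p = 0.0346), and Alg11, 112 kb from Defb13 (0.09 ± 0.11, adjusted p = 0.597). The 3 upregulated neighbours all lay at the chromosome 14 locus, Ctsb, encoding cathepsin B (1.72 ± 0.11), at 64.3 kb from Defb42, then Fdft1, an enzyme of cholesterol synthesis (1.24 ± 0.19), and the DNA glycosylase Neil2 (3.91 ± 0.22), whereas Wdfy2 on the other side, 20.6 kb from Defb48, reached 0.55 ± 0.14. Fam167a, at 378 kb from Defb42, was called downregulated (-1.04 ± 0.31, adjusted p = 0.0481), a call lost in 10 of 15 alternatives. Beside the chromosome 2 locus, 6820408C15Rik at 14.7 kb and Rem1 at 3.90 kb had log2 fold changes of 0.03 ± 0.46 and -0.19 ± 0.21, and Trib3 at 115 kb was called downregulated (-1.05 ± 0.24), a call lost in 4 of 15 alternatives. The nearest tested neighbours of the silent loci, Crispld1, Agpat5, Gm6483 and Gm21092, were not called.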

How the data were processed

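RNA-seq of 3 CON and 3 T + E2 prostates was analysed. Libraries were made with a TruSeq kit and sequenced on an Illumina HiSeq X system. The submitters' processing notes name TopHat, Bowtie2 and HTSeq without versions, and the paper names DESeq2. The genome build, the annotation and the use of strand in counting are not given in the sources used here. The authors deposited whole-number counts per gene, without normalization, and FPKM computed from them. Of the 42 members, 41 have the same coordinates in GENCODE M21 (GRCm38). For 3 of the 22 members with reads (Defb30, Defb42, Defb47) the length behind the FPKM differs from the summed M21 exons.

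Counts were tested in R 4.3.3 with edgeR 4.0.16 (TMM, filterByExpr with a minimum count of 10 and a minimum total of 15, quasi-likelihood test, Benjamini-Hochberg adjustment over 15580 genes). A gene was called a DEG at an adjusted p under 0.05 with a log2 fold change over 1 in either direction. The standard error was taken as the log2 fold change over the root of F. Replicates differed by more than sampling noise. Members at 0 counts in all CON mice were set against 3 counts per library, and those with 1 to 3 counts in a CON mouse were given as a ratio of summed reads with an exact 95% binomial interval. This replaces a lower bound that had been set for both cases. Reads are not independent molecules, so intervals cover counting error only. Alternatives were median-of-ratios (RLE) and total-count scaling, no filter, DESeq2 1.42.0, limma 3.58.1 on log2(FPKM + 0.1) and log2(FPKM + 1), no fold threshold, a replicate block and leaving mice out. The fit was tested on simulated data.

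The members, the lists and the tests were chosen with earlier results of these data known. Every member with over 3 counts is named with its values, and from each list up to 4 DEGs with the largest change, genes at or near 0, and the nearest tested gene on either side of each locus are named. The values of 1 listed gene are not reported here. Protein sequences were not used here, and coding sequences took their place. Similar transcripts were found with BLAST+ 2.17.0+. Figures used matplotlib 3.10.9 in Python 3.11.15.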

Additional observations from a re-analysis of the deposited data

How the results depend on the processing

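The 6 members called upregulated (Defb2, Defb28, Defb29, Defb42, Defb48 and Defb50) were called under all 15 alternatives, and none was called downregulated under any. The count was 6 under RLE and total-count scaling, 7 with no filter, with DESeq2 and with limma on log2(FPKM + 1), each time by adding Defb43, and 7 with no fold threshold, by adding Defb1. It was 10 with limma on log2(FPKM + 0.1), which added Defb9, Defb26, Defb43 and Defb47, and the 2 limma fits share a filter on low values and differ in the pseudocount. With each mouse left out in turn it was 6 to 7, and Defb1 passed the fold threshold without CON mouse 3 or T + E2 mouse 3, its log2 fold change ranging from 0.78 to 1.08, and it was 0.71 without mouse 2 of each group. The replicate numbers of the labels did not pair the mice (correlations of same-numbered deviations of -0.05, 0.03 and 0.05), and with a replicate block the count was 6.

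Of 112 recomputed fold changes of tested members, 110 kept their side of the threshold and 0 reversed. With at least 1 count as the limit of detection, 15 members were detected in CON mice and 21 in T + E2 mice. With over 3 counts in every mouse the CON group had 4, and with at least 10 counts in 1 mouse it had 5. In the T + E2 group the number also fell under stricter limits, from 12 to 9 at the lowest. The ratio of the summed level was 1.93 to 3.03 over its alternatives. Of 420 counts of called genes in the other lists, 376 stayed within 1.5 times. Depth limits the members with few reads per mouse, as the counting intervals of Defb11, Defb15, Defb26 and Defb43 show. The alternative without mouse 2 of each group was chosen after seeing the data.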

Other observations

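Defb6 had 15 reads in CON mouse 1 and 0 in the other 5 mice, and the member with the longest match to its transcript, Defb4 (82.4% identity over 324 bases), had 0 in every mouse, as did Defb5 and Defb46, which match it over shorter stretches. Summed over the proximal chromosome 8 locus, the other CON mice had 1 and 0 reads.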
